A study of Saccharomyces cerevisiae with 6 samples.

Results

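The 33 genes described here are early meiosis genes and metabolic genes that are repressed by Ume6 together with the histone deacetylase Rpd3 in vegetatively growing budding yeast. They were taken from a list by name, drawn up with earlier results of these data known, and all 33 were found among the 6002 protein-coding nuclear genes of the R64 gene table. They comprise 3 regulators (IME1, IME2 and NDT80), 4 metabolic genes (INO1, CAR1, CAR2 and ACS1) and 26 genes with meiotic functions. Signal was summed over the 1000 bp upstream of each start codon, called the promoter here, and from start to stop codon, called the gene body. These windows were complete for all 33 genes and for 5974 genes in all.

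Chromatin was immunoprecipitated with the anti-FLAG antibody M2 from 3 rpd3Δ samples (strain YHy17) and 3 WT samples (strain OAy1102), and the DNA was sequenced. All 6 came from YEPD cultures of about 100 mL at 23 °C, held in G1 for about 4 h with about 5 nM of the mating pheromone α-factor and fixed with 1% formaldehyde. The labels name neither the FLAG-tagged protein nor the mating type, while the series title names Rpd3 and the forkhead factor Fkh1. Each genotype is 1 strain, and the labels do not say whether its samples came from separate cultures, so that p-values measure the spread between these samples only, which may be technical. Pooled cells were read, so binding in fewer cells and less binding per cell cannot be told apart.

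Ume6 is a zinc-cluster protein that binds a short GC-rich element, URS1, upstream of early meiosis genes and of several genes of nitrogen, lipid and carbon metabolism. In growing cells it recruits the Sin3 and Rpd3 deacetylase complex and the remodeller Isw2, which keep these promoters silent. On starvation of diploid cells IME1 is expressed, its product acts at Ume6-bound promoters, and the early genes of recombination and synapsis are switched on. The G1-arrested cells of this experiment are not in meiosis. No promoter sequence was analysed here, so which of these promoters hold URS1 or a forkhead motif is not described.

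Summed counts per sample were 4888453 to 6785491 in rpd3Δ and 3987250 to 5907739 in WT. Of these counts, 56.0% to 64% lay in the ribosomal DNA in rpd3Δ and 37.1% to 49.7% in WT, and library sizes were set outside it. The median bin of 50 bp there held 7 to 9 counts in rpd3Δ samples and 7 to 12 in WT samples, so single bins are imprecise and the results rest on windows. The body of RPD3 had a signal of 0.151 ± 0.0229 times its local background in rpd3Δ and 1.13 ± 0.0472 in WT (SD, n = 3 each). BAR1, the gene of the protease that removes α-factor, was listed at 0 in every sample of both genotypes. No unprecipitated input was analysed here.

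Across the 33 promoters the signal was low and close to that of promoters in general. Signal over local background is the mean count per bin of a window divided by the interquartile mean of the bins in the 20 kb centred on it, so that 1 is the level of the surroundings. The median of the 33 promoters on this scale was 1.14, 1.14 and 1.20 in rpd3Δ samples 1 to 3 and 1.16, 1.12 and 1.14 in WT samples 1 to 3, a mean of 1.16 ± 0.03 in rpd3Δ and 1.14 ± 0.02 in WT (SD, n = 3 each). Over all 5974 promoters the median was 1.09 ± 0.04 in rpd3Δ and 1.13 ± 0.03 in WT. Averaged over the 6 samples, 23 of the 33 promoters (69.7%) lay above 1, against 63.7% of all promoters, and single promoters ran from 0.63 (MEI4) to 3.75 (ACS1).

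**Figure D1:**
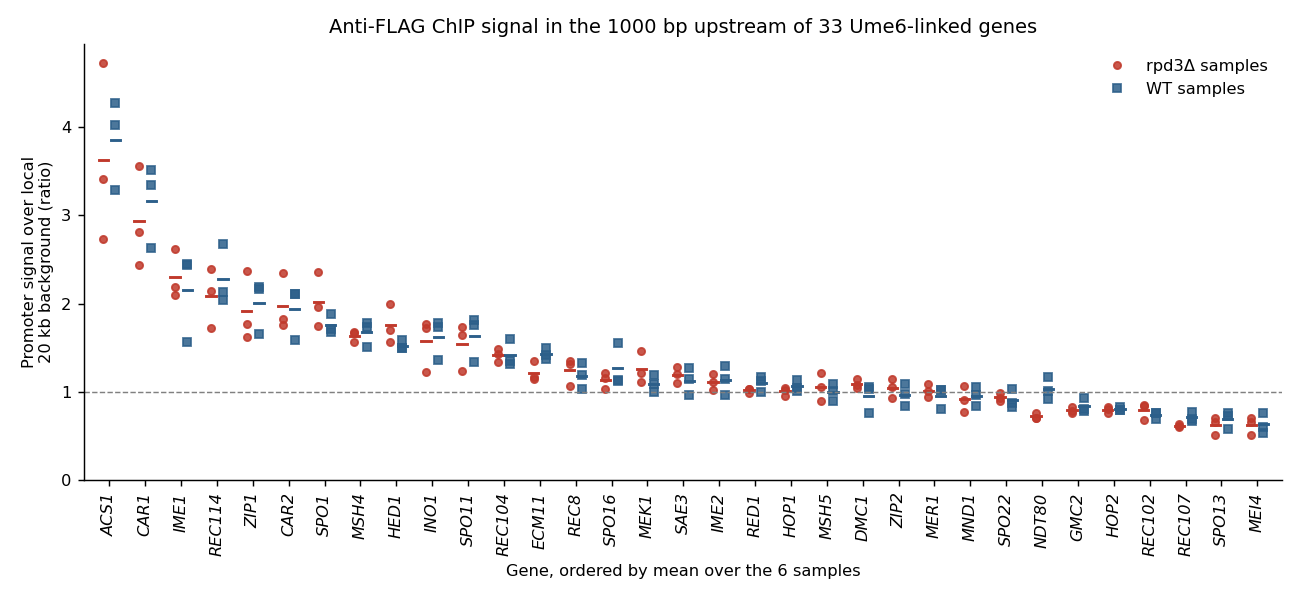
Promoter signal over local background (ratio, linear axis) for each of the 33 genes, with the rpd3Δ samples as circles, the WT samples as squares and short bars for the mean of 3. ACS1, CAR1 and IME1 stand highest, most genes lie near the dashed line at 1, and NDT80 has its 3 rpd3Δ samples below its 3 WT samples.

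The metabolic promoters had a higher median signal than the meiotic promoters. The median of the 4 metabolic promoters was 2.46 ± 0.44 times local background in rpd3Δ and 2.55 ± 0.38 in WT, and that of the 26 meiotic promoters was 1.06 ± 0.04 in rpd3Δ and 1.06 ± 0.02 in WT (SD, n = 3 each). Around start codons, the median of the regulators and metabolic genes combined was 1.82 ± 0.356 in rpd3Δ and 1.99 ± 0.319 in WT between 500 and 250 bp upstream, where all genes had 1.096 ± 0.0460 in rpd3Δ and 1.14 ± 0.0303 in WT. The meiotic genes had 1.06 ± 0.103 in rpd3Δ and 1.06 ± 0.129 in WT there. These are descriptions of lists, with no test.

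**Figure D2:**
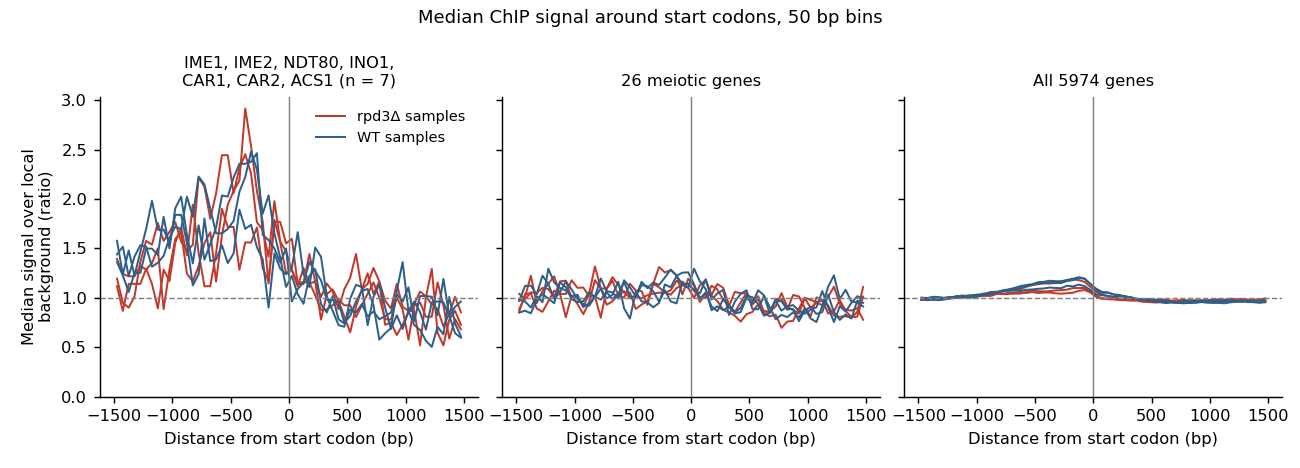
Median signal over local background (ratio) in 50 bp bins by distance from the start codon (bp), 1 line per sample, for the 7 regulators and metabolic genes, the 26 meiotic genes and all 5974 genes. The first panel has an upstream rise in samples of both genotypes, the meiotic genes stay near 1, and rpd3Δ and WT lines cross in the panels of the 7 and the 26 genes.

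The highest point of each promoter window was sought with the signal smoothed over 500 bp, as the summed counts of the 6 samples over their summed local background. It reached 2 times local background in the promoters of 11 of the 33 genes (33.3%), against 18.8% of all genes. In 8 of them (24.2%, against 13.5% of all genes) the maximum lay between the start codon and the nearest annotated gene upstream. In 4 of the 11 (IME1, MSH4, HED1 and REC104) it lay 922 to 982 bp upstream, at the far edge of the window, so that its summit can lie outside. In SPO1 and SPO11 it lay 11 and 68 bp upstream. There the smoothing took in part of the gene body, and the summit can lie inside the gene. REC104, MSH4, HED1 and SPO11 were just inside this limit at 2.24, 2.23, 2.20 and 2.05, and INO1 and IME2 just outside at 1.85 and 1.70. A maximum of at least 2 in every single sample was found for 4 genes (12.1%, against 10.1% of all genes), namely IME1, ACS1, CAR1 and SPO1. The median maximum was 1.33 for the 33 genes and 1.32 for all genes.

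Set against WT, the promoters of these genes had little change in rpd3Δ that passed a test. With edgeR's quasi-likelihood test and Benjamini-Hochberg adjustment at 0.05 over all 5967 promoters tested, 1 of the 33 was lower in rpd3Δ (NDT80) and 0 were higher. All promoters gave 253 lower (4.24%) and 104 higher (1.74%). At an unadjusted p under 0.05 there were 4 of the 33 and 1156 of all promoters. DESeq2 called 1 lower and 0 higher of the 33, and 260 lower and 116 higher of all promoters. With library sizes set over the promoters themselves, all promoters gave 200 lower and 210 higher and the 33 genes 0. The median log2 fold change was 0.02 for the 33 genes, with 19 positive and 14 negative values from -0.54 to 0.31, and -0.05 for all genes. Many simulated log2 changes of 0.5 in size were missed by edgeR, so a promoter without a call is not shown to be unchanged.

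Tests on ratios within each sample, which used no library size but still depend on depth through a pseudocount of 1, called 0 of the 33. For promoter over local background, limma with the same adjustment called 18 of 5967 promoters in either direction (0.302%), and 1 of the 33 and 654 of all were under an unadjusted p of 0.05. For promoter over gene body it called 2 of 5955 genes (0.0336%), and 2 of the 33 and 454 of all were under an unadjusted p of 0.05. Promoters exceeded bodies in 20 of the 33 genes (60.6%), against 62.8% of all genes. The median ratio of promoter to body was 1.18 ± 0.11 in rpd3Δ and 1.29 ± 0.10 in WT for the 33 genes (SD, n = 3 each).

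**Figure D3:**
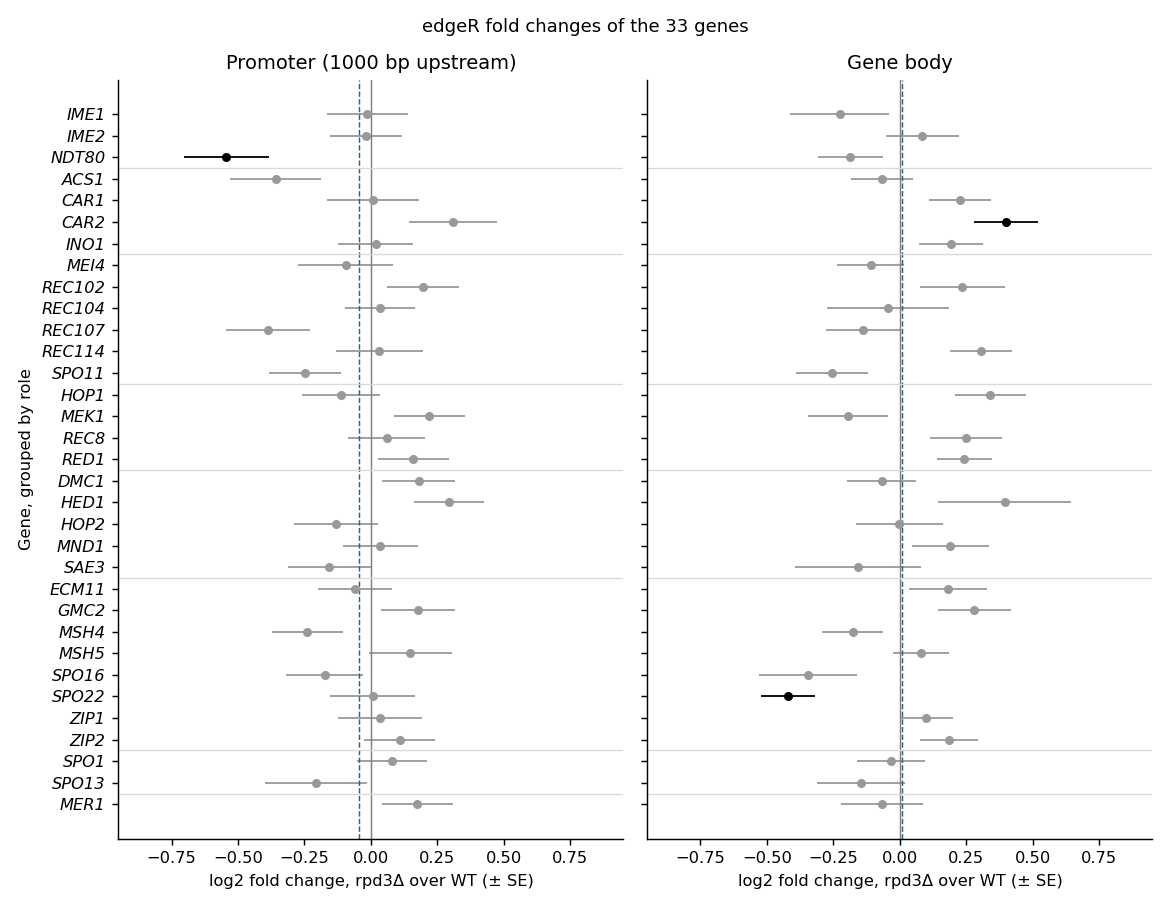
log2 fold changes of rpd3Δ over WT with their standard errors (edgeR, 3 samples each) for promoter and gene body of the 33 genes, grouped by role. Black points passed the adjusted p of 0.05 (NDT80 among promoters, SPO22 and CAR2 among bodies), grey points did not, and the dashed line is the median of all genes.

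Of the 3 regulators, IME1, the master activator of entry into meiosis, had the strongest local signal, and it did not differ between genotypes beyond the spread. Its promoter held 2.62, 2.19 and 2.10 times local background in rpd3Δ samples 1 to 3 and 2.44, 2.45 and 1.56 in WT samples 1 to 3. WT sample 3 was the lowest and the other WT samples lay within the rpd3Δ range. On scaled counts per bin, obtained by dividing by effective library sizes, the mean was 18.4 ± 0.682 in rpd3Δ and 18.5 ± 4.19 in WT, which gave a log2 fold change of -0.01 (edgeR, SE 0.152, adjusted p = 0.976).

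The summit upstream of IME1 lay just outside that window. It was centred 1125 bp before the start codon, at chrX:606751-606800 (R64), inside IRT1 (chromosome X, 605936 to 607424), a noncoding RNA gene whose transcription across the IME1 promoter represses IME1. Smoothed over 250 bp, the summit had 12.3, 8.64 and 7.15 times local background in rpd3Δ samples and 11.1, 11.8 and 8.96 in WT samples. The ranges overlapped, with rpd3Δ sample 1 the highest of all 6 and rpd3Δ sample 3 the lowest. IRT1 as a whole averaged 4.34 ± 1.19 in rpd3Δ and 4.83 ± 0.683 in WT (SD, n = 3 each; exact permutation p = 0.6, both sides counted). The smallest p that 3 samples against 3 allow is 0.1.

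Similar differences between samples were seen at strong promoters that are not among the 33 genes. In the 239 other promoters with a smoothed maximum of at least 4, the median at the maximum was 6.63, 4.75 and 4.07 in rpd3Δ samples 1 to 3 and 6.17, 6.32 and 4.55 in WT samples 1 to 3. Sample 3 of each genotype and rpd3Δ sample 2 were low there, as at the summits of IME1, ACS1 and CAR1, and the part of this in the spread at the 3 genes was not tested.

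**Figure D4:**
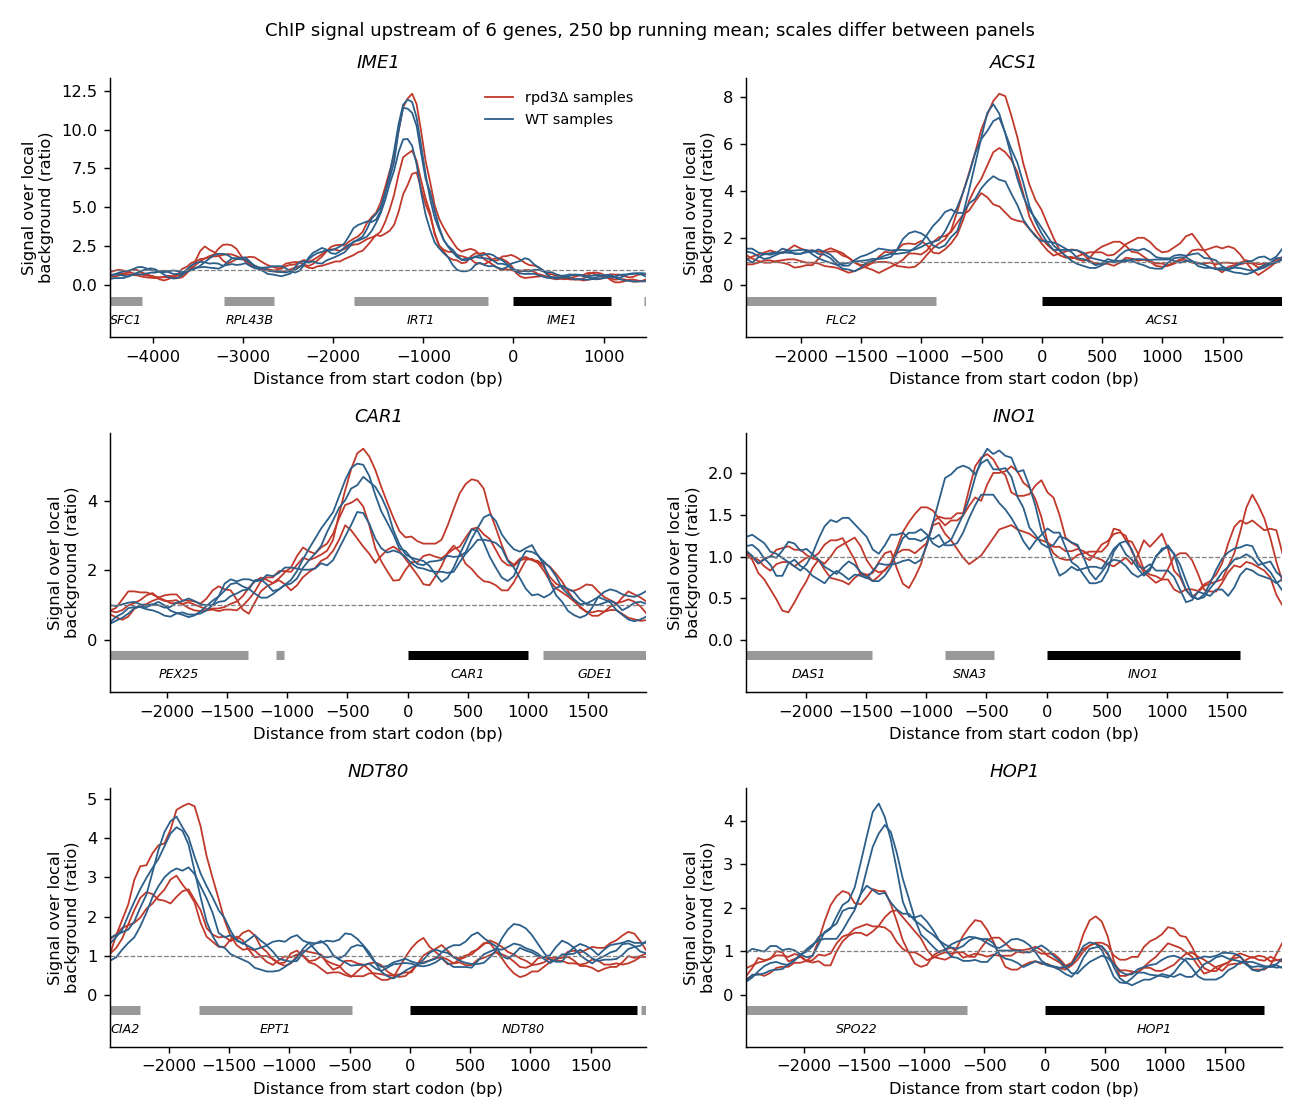
Signal over local background (ratio, 250 bp running mean, 1 line per sample) by distance from the start codon (bp) at IME1, ACS1, CAR1, INO1, NDT80 and HOP1, with genes as bars under each panel and a separate scale per panel. Summits upstream of IME1 (in IRT1), ACS1 and CAR1 are present in both genotypes, and upstream of HOP1 a summit inside SPO22 is higher in WT samples 1 and 2 than in the other samples.

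IME2, a protein kinase needed for early meiotic gene expression, had promoter values near its surroundings. They were 1.20, 1.02 and 1.11 times local background in rpd3Δ and 0.959, 1.29 and 1.14 in WT, with the rpd3Δ samples inside the WT range. The log2 fold change of scaled counts was -0.02 (edgeR, SE 0.136, adjusted p = 0.965).

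NDT80, the transcription factor that switches on the middle sporulation genes, was the member whose promoter passed the test. Scaled counts per bin were 5.75, 6.01 and 6.30 in rpd3Δ samples and 9.83, 7.50 and 9.09 in WT samples, so that all rpd3Δ samples lay below all WT samples. The promoter was lower in rpd3Δ, with a log2 fold change of -0.54 (edgeR, SE 0.161, adjusted p = 0.0248). The level was near background in both genotypes, 0.719 ± 0.0295 times local background in rpd3Δ and 1.03 ± 0.126 in WT (SD, n = 3 each), and the window takes in the 3′ end of EPT1 on the same strand. Over local background the log2 difference was -0.44 (limma adjusted p = 0.118). The edgeR call was lost without rpd3Δ sample 1 (adjusted p = 0.0551), rpd3Δ sample 2 (0.0803), WT sample 1 (0.195) or WT sample 3 (0.0587), and over the alternatives tried the adjusted p ran from 0.0168 to 0.226.

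A clearer summit stood further upstream of NDT80, 1936 bp before its start codon and between CIA2 and EPT1. It had 4.72, 2.50 and 3.04 times local background in rpd3Δ and 4.28, 4.55 and 3.23 in WT. The ranges overlapped, with rpd3Δ sample 1 the highest of the 6.

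Among the metabolic genes, ACS1, which encodes an acetyl-CoA synthetase used on nonfermentable carbon, had the highest promoter signal of the 33, above 98.2% of all promoters. Scaled counts per bin were 26.2, 19.9 and 17.1 in rpd3Δ samples and 28.9, 29.6 and 22.6 in WT samples. The values of rpd3Δ samples 2 and 3 lay below all WT values and that of rpd3Δ sample 1 lay between them. The log2 fold change was -0.36 (edgeR, SE 0.171, adjusted p = 0.22), and without rpd3Δ sample 1 it was -0.55 with an adjusted p of 0.0159. The summit at chrI:45401-45450, 404 bp before the start codon, had 7.82, 5.64 and 3.43 times local background in rpd3Δ and 7.68, 6.96 and 4.63 in WT, so that the first rpd3Δ sample was above all WT samples. As at strong promoters elsewhere, sample 3 was the lowest within each genotype, and the part of this in the difference was not tested.

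CAR1 encodes arginase, the first enzyme of arginine breakdown. Its promoter had 3.56, 2.81 and 2.44 times local background in rpd3Δ and 3.34, 3.52 and 2.64 in WT, with overlapping ranges. The log2 fold change of scaled counts was 0.01 (edgeR, SE 0.175, adjusted p = 0.988). The summit lay 419 bp upstream at chrXVI:339501-339550, and CAR1 also had the highest body signal of the 33, 2.56 ± 0.645 times local background in rpd3Δ and 2.39 ± 0.253 in WT (SD, n = 3 each).

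CAR2, which encodes ornithine transaminase in the same breakdown pathway, was the member whose body was called higher. Body scaled counts per bin were 12.9, 13.03 and 11.9 in rpd3Δ and 9.10, 9.52 and 10.1 in WT, and the genotypes did not overlap. The log2 fold change was 0.40 (edgeR, SE 0.120, adjusted p = 0.0305). Its promoter had 30.2, 23.4 and 22.1 scaled counts per bin in rpd3Δ and 21.4, 21.8 and 17.9 in WT, a log2 fold change of 0.31 that did not pass the test (SE 0.165, adjusted p = 0.294). CAR2 lies on the right arm of chromosome XII, which carries the ribosomal DNA and where 364 of 439 promoters had a positive log2 fold change. With the local background of each sample taken into account the body log2 fold change was 0.13 (edgeR adjusted p = 0.663). The body call was also lost without WT sample 1 (0.141), WT sample 2 (0.111), rpd3Δ sample 1 (0.0642) or rpd3Δ sample 2 (0.140).

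The other members on that arm were RED1, REC102 and GMC2, and all 4 had positive promoter and body fold changes. Their median log2 fold change was 0.19 for promoters and 0.26 for bodies, and the arm's median was 0.19 and 0.26. Over local background the promoter median of the 4 was -0.02.

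INO1, which encodes inositol-3-phosphate synthase and is the classical URS1 gene of phospholipid synthesis, had a moderate promoter signal. It was 1.72, 1.77 and 1.23 times local background in rpd3Δ and 1.73, 1.78 and 1.36 in WT, with overlapping ranges and the lowest value in sample 3 of each genotype. The log2 fold change of scaled counts was 0.02 (edgeR, SE 0.141, adjusted p = 0.968). The highest point lay 493 bp upstream, inside the neighbouring gene SNA3.

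The genes of meiotic double-strand breaks ran from the lowest promoter of the 33 to one of the 5 highest. SPO11 encodes the enzyme that cuts DNA, REC102 and REC104 its core partners, and REC107, REC114 and MEI4 the proteins that tie break formation to the chromosome axis. REC114 had the highest promoter of these, with 2.39, 2.14 and 1.72 times local background in rpd3Δ and 2.04, 2.68 and 2.13 in WT. The genotypes overlapped, and the log2 fold change of scaled counts was 0.03 (edgeR, SE 0.163, adjusted p = 0.947).

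MEI4 was at the other end, with 0.652, 0.509 and 0.706 times local background in rpd3Δ and 0.755, 0.602 and 0.532 in WT, again overlapping (log2 fold change -0.09, SE 0.180, edgeR adjusted p = 0.838). Its body was higher than its promoter, at 1.40 ± 0.335 in rpd3Δ and 1.44 ± 0.148 in WT (SD, n = 3 each). REC107 had 6.69, 6.48 and 6.43 scaled promoter counts per bin in rpd3Δ and 7.92, 9.57 and 8.01 in WT. All rpd3Δ samples of REC107 lay below all WT samples, but the log2 fold change of -0.39 did not pass the test (edgeR, SE 0.157, adjusted p = 0.131). SPO11, REC102 and REC104 had promoter log2 fold changes of -0.25, 0.20 and 0.03, none of which passed.

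Genes of the chromosome axis and of cohesin comprise HOP1 and RED1, which build the axis, the kinase gene MEK1, and REC8, the meiotic cohesin subunit. In this group 0 of 4 promoters reached a smoothed maximum of 2, and 0 of 4 passed the promoter test, with log2 fold changes from -0.11 to 0.22. The HOP1 promoter had 0.949, 1.05 and 1.02 times local background in rpd3Δ and 1.01, 1.14 and 1.04 in WT. It was at the level of its surroundings in every sample, and the log2 fold change of scaled counts was -0.11 (edgeR, SE 0.147, adjusted p = 0.743).

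HOP1 shares an interval of 647 bp with the divergent gene SPO22, also called ZIP4, whose product is needed for crossovers and synapsis. SPO22 was the member whose body was called lower. Its body held 8.94, 7.01 and 7.24 scaled counts per bin in rpd3Δ and 10.7, 10.7 and 9.66 in WT, with all rpd3Δ samples below all WT samples. The log2 fold change was -0.42 (edgeR, SE 0.103, adjusted p = 0.00553), and without rpd3Δ sample 2 it was -0.35 with an adjusted p of 0.111.

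The signal within SPO22 had a summit near its 5′ end, at chrIX:225251-225300 and 1327 bp before the HOP1 start codon. There the smoothed signal was 2.38, 1.55 and 1.78 times local background in rpd3Δ and 4.08, 3.90 and 2.35 in WT. WT samples 1 and 2 were high, and WT sample 3 lay just under rpd3Δ sample 1. The SPO22 promoter itself had a log2 fold change of 0.01 (SE 0.158, adjusted p = 0.99), and the HOP1 body, on the other side of the shared interval, one of 0.34 that did not pass (SE 0.133, adjusted p = 0.114).

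Over all gene bodies tested (5959), edgeR called 183 lower in rpd3Δ (3.07%) and 242 higher (4.06%), against 1 of 33 lower (SPO22) and 1 of 33 higher (CAR2). With the local background as an offset all bodies gave 78 lower and 61 higher, and of the 33 SPO22 was still called. At an unadjusted p under 0.05 there were 6 of the 33 and 1238 of all bodies. The body median over local background was 0.990 ± 0.0180 in rpd3Δ and 0.998 ± 0.0439 in WT for the 33 genes (SD, n = 3 each).

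The remaining synapsis and crossover genes are ZIP1, which encodes the central filament of the synaptonemal complex, ZIP2 and SPO16, MSH4 and MSH5, whose products stabilise crossover intermediates, and GMC2 and ECM11 of its central element. ZIP1 had 2.37, 1.77 and 1.62 times local background at its promoter in rpd3Δ and 2.19, 2.17 and 1.66 in WT. Sample 1 was high and sample 3 low in both genotypes, and the log2 fold change of scaled counts was 0.03 (edgeR, SE 0.158, adjusted p = 0.941). Of the 8 genes of this group, SPO22 included, 0 passed the promoter test, with log2 fold changes from -0.24 (MSH4) to 0.18 (GMC2).

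Genes of strand exchange include DMC1, the meiotic recombinase, its helpers HOP2, MND1 and SAE3, and HED1. HED1 had the most positive promoter fold change after CAR2. Its scaled counts per bin were 14.4, 12.95 and 12.5 in rpd3Δ and 10.6, 11.0 and 10.9 in WT, with no overlap, but the log2 fold change of 0.29 did not pass the test (edgeR, SE 0.131, adjusted p = 0.182). Over local background the genotypes overlapped, at 1.99, 1.70 and 1.56 in rpd3Δ and 1.49, 1.49 and 1.59 in WT. The other 4 had promoter log2 fold changes from -0.16 to 0.18 and levels from 0.796 (HOP2) to 1.16 (SAE3) times local background over the 6 samples.

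SPO13, which protects cohesion at centromeres in the first meiotic division, had one of the lowest promoter levels. It was 0.512, 0.703 and 0.658 times local background in rpd3Δ and 0.756, 0.718 and 0.579 in WT, with overlapping genotypes and a log2 fold change of scaled counts of -0.21 (edgeR, SE 0.192, adjusted p = 0.601). SPO1, which encodes a phospholipase-like protein needed for spore formation, had a promoter signal of 2.02 ± 0.314 in rpd3Δ and 1.75 ± 0.110 in WT (SD, n = 3 each). It is named for its smoothed maximum, 11 bp before the start codon and so partly of the gene body, after its values were seen. Its log2 fold change of scaled counts was 0.08 (edgeR, SE 0.131, adjusted p = 0.809). MER1, a splicing activator of meiotic transcripts, had 1.01 ± 0.0710 in rpd3Δ and 0.948 ± 0.130 in WT.

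On the scale of promoter over local background, all rpd3Δ samples lay below all WT samples for 3 of the 33 genes, against 10.4% of all promoters, and above them for 0 of the 33, against 4.52%. The 3 genes were NDT80, REC107 and ECM11, each with an exact permutation p of 0.1, the smallest possible. On scaled counts the genotypes were apart for 3 genes below (NDT80, REC107 and HOP2), against 14.2% of all promoters, and for 4 above (CAR2, HED1, RED1 and GMC2), against 8.4%; CAR2, RED1 and GMC2 are right-arm genes of chromosome XII. ECM11 had 1.16, 1.14 and 1.35 in rpd3Δ and 1.497, 1.37 and 1.41 in WT.

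Other genes of the same pathways were read from lists of known members. Of 13 genes of Ume6, the Rpd3 complex and Isw2, excluding RPD3 itself, 0 promoters passed the edgeR test in either direction, and UME6 had a body signal of 0.821 ± 0.0333 in rpd3Δ and 0.804 ± 0.0493 in WT (SD, n = 3 each). Of 9 further early meiosis genes, 0 promoters passed, with a median log2 fold change of 0.03. Among 22 middle sporulation genes, targets of Ndt80, 1 was lower (SPO20, log2 fold change -0.43) and 0 higher, against 4.24% lower and 1.74% higher of all promoters, with a median of -0.08. The SPO20 call (edgeR adjusted p = 0.0440) was lost without WT sample 1 (0.193), WT sample 2 (0.181), rpd3Δ sample 2 (0.302) or rpd3Δ sample 3 (0.0570). Its log2 fold change with a local background offset was -0.23 (edgeR adjusted p = 0.589).

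Regulators that act upstream of IME1 held the most promoter calls among the lists of this kind, with 3 of 14 promoters lower and 0 higher in rpd3Δ, against 4.24% lower and 1.74% higher of all promoters. Their median log2 fold change was -0.28, against -0.05 for all promoters. RME1, a repressor of IME1 in haploid cells, had 8.30, 6.22 and 5.08 scaled counts per bin in rpd3Δ and 10.03, 9.57 and 10.9 in WT, without overlap (log2 fold change -0.61, SE 0.152, edgeR adjusted p = 0.00562). RIM15, a kinase that promotes entry into meiosis on starvation, had 17.7, 17.7 and 16.4 in rpd3Δ and 27.8, 28.4 and 21.1 in WT (-0.58, SE 0.161, adjusted p = 0.0151). GPA2, a G-protein subunit of nutrient signalling, had 7.12, 6.99 and 7.11 in rpd3Δ and 9.83, 11.6 and 10.04 in WT (-0.58, SE 0.145, adjusted p = 0.00601).

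In all 3 of these promoters every rpd3Δ sample was below every WT sample on scaled counts, as in 14.2% of all promoters. The 3 were picked by the test on the same counts, so this adds no support. Over local background, limma called 0 of the 14, with adjusted p of 0.168 for RME1, 0.376 for RIM15 and 0.168 for GPA2, and all 14 differences were negative, with a median of -0.24 against -0.06 for all promoters. Negative differences were also the majority among all promoters, 3801 of 5967. In lists described below they were 9 of 11 phospholipid genes, 9 of 11 arginine genes and 13 of 15 CLB2 cluster genes. They were 14 of 22 middle sporulation genes, 5 of 13 in the Ume6 list, 3 of 9 further early meiosis genes and 5 of 10 acetate genes. A smoothed maximum of at least 2 was found in 6 of the 14 (42.9%), against 18.8% of all genes. Strong promoters elsewhere were low in rpd3Δ samples 2 and 3 and WT sample 3, and the part of this in the differences was not tested. With the 500 bp window all 3 edgeR calls were lost (adjusted p of 0.199 for RME1, 0.0800 for RIM15 and 0.117 for GPA2), and the window cut at the neighbouring gene also ended those of RIM15 (0.0553) and GPA2 (0.0588). RME1 had no result with the cut window, and its 1000 bp window takes in the gene YGR045C (chromosome VII, 583934 to 584296). The RIM15 call was also lost without WT sample 1 (edgeR adjusted p = 0.122), WT sample 2 (0.157) or rpd3Δ sample 2 (0.0838), that of GPA2 without WT sample 2 (0.133), and that of RME1 without rpd3Δ sample 3 (0.0577).

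The metabolic relatives of the 4 metabolic genes gave few promoter calls. Of 11 phospholipid genes controlled by Ino2 and Ino4, 2 were lower in rpd3Δ, INO4 (log2 fold change -0.42, edgeR adjusted p = 0.0438) and OPI3 (-0.50, adjusted p = 0.0183), and 0 were higher, against 4.24% lower and 1.74% higher of all promoters. Of 11 arginine genes, 0 promoters passed in either direction. Of 10 acetate and nonfermentable carbon genes, 1 was higher (ACS2, 0.63, adjusted p = 0.0332) and 0 lower; the 500 bp window (0.199) and the cut window (0.122) ended this call. ACS2, the acetyl-CoA synthetase gene expressed on glucose, also lies on chromosome XII, and over local background its log2 difference was 0.05 (limma adjusted p = 0.932). With the window cut at the neighbouring gene, the log2 fold change of OPI3 was -0.25 (edgeR adjusted p = 0.838) and that of INO4 -0.33 (0.631), and the 500 bp window and the local background offset also ended both calls. By edgeR, the INO4 call was lost whichever sample was left out (adjusted p of 0.0637 to 0.157). The OPI3 call was lost without WT sample 1 (0.0878), WT sample 2 (0.154) or rpd3Δ sample 2 (0.118), and the ACS2 call without WT sample 1 (0.222), WT sample 2 (0.237) or rpd3Δ sample 2 (0.127).

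Gene bodies of the related lists were called by edgeR in 1 direction, higher in rpd3Δ, with 0 lower in any of them, against 4.06% higher and 3.07% lower of all bodies. The genes named for this were chosen after their values were seen. Of the arginine genes 3 of 11 were higher, namely ARG1 (log2 fold change 0.65, adjusted p = 0.00024), CPA1 (0.39) and PUT1 (0.51), which act in arginine synthesis (ARG1, CPA1) and proline breakdown (PUT1). Of the acetate and nonfermentable carbon genes 3 of 10 were higher, namely ACS2 (0.35), ADR1 (0.29) and CTA1 (0.37). The list of early meiosis genes had 1 of 9, PCH2, a checkpoint gene (0.63, adjusted p = 0.00012), the Ume6 and Rpd3 complex list 1 of 13 (ITC1, 0.37), the middle sporulation list 1 of 22 (GAS2, 0.39), and the phospholipid genes and the regulators of IME1 had 0.

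ARG1 had 14.9, 13.3 and 16.2 scaled body counts per bin in rpd3Δ and 9.94, 9.45 and 8.90 in WT. PCH2 had 11.9, 13.1 and 11.8 in rpd3Δ and 7.85, 7.42 and 8.54 in WT. In both genes all rpd3Δ samples lay above all WT samples, and the call was kept under all 11 alternatives tried. With the local background offset the other 7 of these body calls were lost, with log2 fold changes of 0.11 for PUT1, 0.26 for CPA1, 0.10 for ADR1, 0.29 for CTA1, 0.20 for ITC1, 0.20 for GAS2 and -0.22 for ACS2. PUT1, GAS2 and ACS2 lie on chromosome XII.

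Leaving out 1 sample ended some of these body calls (edgeR adjusted p in brackets). CPA1 lost its call without WT sample 1, WT sample 2 or rpd3Δ sample 2 (0.0600 to 0.0928), CTA1 without the same samples (0.134 to 0.244), and ACS2 without WT sample 2 (0.0525). ADR1 lost it without WT sample 1, rpd3Δ sample 1 or rpd3Δ sample 2 (0.107 to 0.167), ITC1 without WT sample 1 or rpd3Δ sample 2 (0.151 to 0.160), and GAS2 without WT sample 2, rpd3Δ sample 2 or rpd3Δ sample 3 (0.100 to 0.244).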

How the data were processed

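The authors deposited raw counts of reads in 241434 bins of 50 bp, over 16 chromosomes for each of 6 samples. The submitters' processing notes name Bowtie2, SAMtools, bedtools and the build R64; versions and read filters are not stated there. A read that crosses a bin border counts in each bin it touches. Gene positions came from the RefSeq table of R64.

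Bins were summed per window by their midpoint. Windows with a mean under 10 counts, the ribosomal DNA with 2000 bp on each side, RPD3 and BAR1 were left out of the tests. Library size was TMM over 1192 bins of 10 kb. Counts were tested with edgeR 4.0.16 (glmQLFit, glmQLFTest, R 4.3.3), and ratios with limma 3.58.1 (trend) as log2 with a pseudocount of 1, which understates changes of low windows. The pseudocount was added to unscaled counts per bin, so that it weighs more in samples of lower depth. Adjustment was Benjamini-Hochberg at 0.05 over all windows. For edgeR, the standard error is |log2 fold change| divided by √F. DESeq2 1.42.0 was an alternative. In a simulation, 50 promoters were given a known change of each size. At a true log2 change of -0.5, edgeR called 54% of them and limma, on promoter over local background, 46%. At 0.5 edgeR called 62% and limma 54%, and at -1 and 1 both called 100%. Of unchanged promoters edgeR called 0.225% and limma 0.26%. For limma, the simulated local background was exactly proportional to library size and had no noise of its own. Its shares therefore leave out the noise and regional differences of the measured background. Changes smaller than 0.5 were not simulated, so a missing call does not show that a promoter was unchanged. Tables used Python 3.11.15.

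The genes and lists were chosen with earlier results of these data known. Values per sample are given for 7 genes fixed by name, the 5 highest and 2 lowest promoters, every one of the 33 past the adjusted p threshold, and the 2 most positive and 2 most negative promoter fold changes; SPO1 and ECM11 were added. Genes of other lists are named where past the promoter threshold, and those called in bodies were added. WT samples 1 and 2 were alike at the 239 strong promoters outside the 33 genes, with medians of 6.17 and 6.32 against 4.55 in WT sample 3. They differed in their share of ribosomal DNA (43.3% and 37.1%), and were counted as 2 samples.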

Additional observations from a re-analysis of the deposited data

How the results depend on the processing

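For promoters (253 lower and 104 higher in rpd3Δ in all, 1 lower of the 33), the local background offset left 13 lower and 6 higher, the 500 bp window 72 and 19, the window cut at the neighbouring gene 102 and 30, and WT samples 1 and 2 summed 123 and 39; TMM over the promoters gave 200 and 210. The 33 genes had 0 lower under each of these 5. Leaving out 1 sample at a time gave 83 to 343 lower and 22 to 110 higher, with 0 to 1 of the 33 lower. For bodies, the offset gave 78 lower and 61 higher with 0 of the 33 higher, and leaving out 1 sample gave 89 to 200 lower and 109 to 299 higher, with 0 to 1 of the 33 lower and 0 to 2 higher. The body of RED1 gained a call without WT sample 3 (log2 fold change 0.38) and that of CAR1 without rpd3Δ sample 3 (0.37). The ACS2 body reversed from 0.35 to -0.22 with the offset. Over local background, a 10 kb background left 2 lower and 1 higher, the 500 bp window 1 and 1, and leaving out 1 sample 2 to 93 lower and 0 to 11 higher. Promoter over body had 0 lower and 0 higher with the 500 bp window, and 1 lower and 0 to 1 higher without 1 sample. The median promoter of the 33 was 1.12 in rpd3Δ and 1.23 in WT with the cut window; without 1 sample it was 1.14 to 1.17 in rpd3Δ and 1.13 to 1.15 in WT. The causes were not tested.

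To look for pairing, the log counts of each promoter were taken as deviations from their mean within each genotype. Correlations of these deviations between rpd3Δ and WT samples were 0.137, -0.0433 and 0.247 at equal replicate number. At unequal number they ran from -0.294 to 0.217. The highest was that of the samples numbered 3, so whether replicate numbers pair the samples was not settled. With the replicate block, promoters gave 354 lower and 167 higher, bodies 220 and 330, promoter over local background 59 and 17 with 1 of the 33 lower (NDT80, -0.44, limma adjusted p = 0.0489), and promoter over body 5 and 5. With 7 to 12 counts in the median bin, differences in single bins were not detectable.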

Other observations

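The CLB2 cluster, 15 genes of the G2/M phase that Fkh1 and Fkh2 regulate, was read beside the 33 genes because the series title names Fkh1. Its median promoter signal was 1.54 ± 0.21 times local background in rpd3Δ and 1.66 ± 0.16 in WT (SD, n = 3 each). A smoothed maximum of at least 2 was found in 8 of 15 of its promoters (53.3%), against 11 of the 33 genes (33.3%) and 18.8% of all genes. In the promoter test 1 of 15 was lower in rpd3Δ and 0 were higher, against 4.24% lower and 1.74% higher of all promoters. The lower promoter was that of BUD4, which marks bud sites, with 16.7, 14.1 and 12.7 scaled counts per bin in rpd3Δ and 19.4, 23.4 and 19.0 in WT (log2 fold change -0.50, edgeR adjusted p = 0.0235). Over local background its difference was -0.47 (limma adjusted p = 0.332). The edgeR call was lost without WT sample 1 (adjusted p = 0.0603), WT sample 2 (0.232), rpd3Δ sample 2 (0.135) or rpd3Δ sample 3 (0.111), and with the 500 bp window (0.178), the cut window (0.0655) or the local background offset (0.247).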
